A study of Mus musculus with 4 samples.

Results

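ATF4 and 6 genes of the integrated stress response were followed in mouse helper T cells: Atf4, Ddit3, Trib3, Asns, Chac1, Ddit4 and Sesn2. The members were all probe sets whose platform annotation gives one of these symbols alone, which found 13 probe sets for the 7 genes. They stand among 45101 probe sets in the table and 18193 genes that could be named. The study compared helper T cells with and without STAT4 or STAT6, the transcription factors that interleukin-12 and interleukin-4 activate. Naive CD4+ cells, sorted as CD44-CD62L+ from spleen and lymph nodes, were stimulated through CD3 and CD28 for 3 days and then held in interleukin-2 for 4 days. Th1 cultures had interleukin-12 throughout and anti-IL-4 in the first phase, and Th2 cultures had interleukin-4 throughout and anti-IFN-g in the first phase. All cultures were restimulated through CD3 and CD28 for 2 h on day 7, with interleukin-12 (Th1) or interleukin-4 (Th2).

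The 4 groups were Th1 wild type and Th2 wild type (both C57BL/6J), Th1 STAT4-deficient (C57BL6-STAT4<tm1>) and Th2 STAT6-deficient (B6.129S2©-STAT6<tm1Gru>/J). The labels name no Cre or transgene, and they give no age and no number of mice per culture. Each group is 1 array. No difference below has a replicate spread, a test or a p-value, and each one describes these arrays only. STAT4-deficient Th2 cells and STAT6-deficient Th1 cells were not analysed here, so loss of a factor and culture condition cannot be told apart where the 2 deficient groups are set side by side.

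The integrated stress response starts when kinases such as PERK, GCN2, PKR and HRI phosphorylate the translation factor eIF2. General protein synthesis then slows, while the Atf4 transcript, which carries upstream reading frames, is translated better. ATF4 is a bZIP transcription factor that pairs with C/EBP proteins and raises genes for amino acid supply and for stress feedback. Because much of this control acts on translation, the level of the Atf4 transcript is not a measure of ATF4 protein. Activated T cells need large amounts of amino acids, and ATF4 is known to serve that need in them.

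The promoters of Asns and Chac1 are shown because each holds, ahead of the start site, the core of the C/EBP-ATF response element through which ATF4 acts. The 250 bases before the start are printed 5′ to 3′ on the gene's own strand, from RefSeq (GRCm38.p6), with that core in capitals. Asns lies on the minus strand at chr6:7693210-7693459 and Chac1 on the plus strand at chr2:119350992-119351241.
Asns: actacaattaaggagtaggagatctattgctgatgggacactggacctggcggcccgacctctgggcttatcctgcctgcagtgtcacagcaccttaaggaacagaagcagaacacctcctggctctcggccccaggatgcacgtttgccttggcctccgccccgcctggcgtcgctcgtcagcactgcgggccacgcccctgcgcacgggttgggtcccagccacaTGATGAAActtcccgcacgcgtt
Chac1: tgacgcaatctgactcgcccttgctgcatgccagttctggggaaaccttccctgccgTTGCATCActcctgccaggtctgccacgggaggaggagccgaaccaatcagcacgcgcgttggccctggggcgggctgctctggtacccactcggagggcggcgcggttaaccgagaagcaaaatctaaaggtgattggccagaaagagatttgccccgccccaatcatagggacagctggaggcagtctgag

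The core searched was TGATGNAA on either strand, over windows of 300 bases that run 250 bases before the start to 50 after it; all 7 genes had such a window. The Asns match begins 23 bases before the start, and the Chac1 match, which reads TTGCATCA on this strand, begins 193 bases before it. Trib3 has a match, TTACATCA, that begins at base 15 of the transcript. So 3 of the 7 windows held the core, against 3.97% of all 32851 windows. No match was found in the windows of Atf4, Ddit3, Ddit4 and Sesn2, which says only that these letters are not there. The cAMP response element TGACGTCA was in none of the 7 and in 1.79% of all windows. The STAT motif TTCNNNGAA was in none of the 7 and in 8.3% of all windows. The form with 4 bases between TTC and GAA, which STAT6 prefers, was in 1 of the 7, Chac1, and in 6.95% of all windows; it begins 216 bases before the start and does not overlap the core. A match is a description of letters, not evidence of binding.

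Values are the deposited log2 expression values (RMA). The signal of 1 probe set is compared across arrays, and never with the signal of another gene. A gene with several probe sets is represented by the one with the highest mean over the 4 arrays. It was called higher or lower where 2 arrays differed by at least 2-fold (1 on the log2 scale) and the brighter array reached the level minimum, the pooled median of 5.82. In words below, "higher" and "lower" without a value mean such a call. As a guide to technical disagreement, the SD of the log2 difference among probe sets of 1 gene was 0.48 (loss of STAT4), 0.65 (loss of STAT6), 0.71 (Th1 minus Th2 wild type) and 0.85 (the deficient groups, STAT4 minus STAT6). The median log2 difference of all genes at the level minimum was 0.13, −0.3, −0.37 and 0.02 in that order. On the Th2 STAT6-deficient array the 3′ signal of the actin control exceeded its 5′ signal by 2.08 log2 units, against 0.32 to 0.85 on the other 3 arrays. This is a measure of RNA quality, and its part in the differences was not tested.

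The labelled cell type and polarity were checked on marker genes. All 7 measured T lineage markers, Cd4 and the Cd3 chains among them, were above the level minimum on all 4 arrays, with means of 12.23 to 12.6. Ifng read 14.67 in Th1 wild type and 8.18 in Th2 wild type cells, and Il4 read 9.06 and 14.17. Without STAT4, Stat4, Ifng and Il12rb2 were lower, and Il4, Il13 and Gata3 were higher. Without STAT6, Gata3 and Il5 were lower and Ifng and Tbx21 higher. All these calls held under the 4 other scalings described below. Il4 and Il13 were not called in STAT6 loss, at −1.07 to −0.81 and −0.3 to 0.03 under those scalings. Stat4 read 11.45 in Th1 wild type and 9.2 in Th1 STAT4-deficient cells, and 8.96 and 9.9 in the wild type and deficient Th2 cells. Stat6 read 10.93 in wild type and 10.92 in deficient Th2 cells; whether its probes lie in the deleted part is not known here, so they are no check of the genotype.

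**Figure D1:**
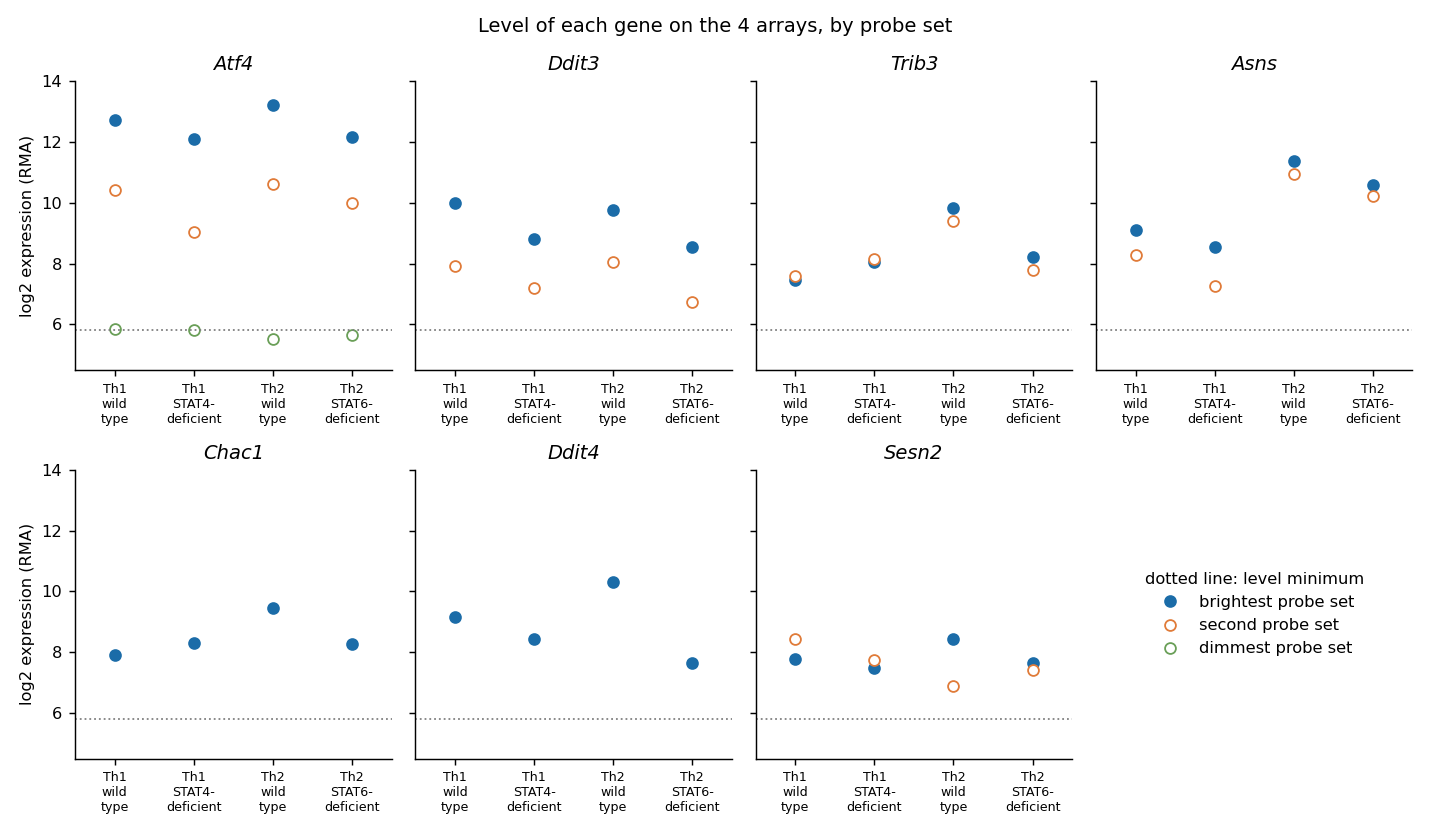
Log2 expression (RMA) of each gene on the 4 arrays, with 1 point per probe set; the filled points are the brightest probe set and the dotted line is the level minimum of 5.82. Th2 wild type is the highest array for the brightest probe set of every gene but Ddit3, and the 2 Sesn2 probe sets order the arrays differently.

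Atf4 encodes the transcription factor of the response. Its brightest probe set read 12.72 with STAT4 and 12.1 without it in Th1 cells, and 13.22 with STAT6 and 12.17 without it in Th2 cells. Both wild type arrays were above both deficient arrays, and the whole range was 1.12 log2 units. For this and the array orders of later genes, the share of all genes with the same order is not given here. Without STAT6 it was 2.07-fold lower, which is just past the limit, and without STAT4 it was 1.54-fold below wild type, which is not a call. A second probe set (of the x_at kind) gave 10.42, 9.04, 10.6 and 9.98 in the same order of groups. Here the STAT4-deficient array was the low one, at 2.61-fold under its wild type, while the STAT6 pair differed by only 1.54-fold. The suffix x_at marks probe sets whose probes can match other transcripts too. The third stayed between 5.51 and 5.85, about the level minimum, and ran with neither of the others.

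Ddit3 encodes CHOP, a bZIP factor that ATF4 induces and that promotes cell death when stress lasts. It read 10.00 with STAT4 and 8.79 without it in Th1 cells, and 9.76 with STAT6 and 8.54 without it in Th2 cells. Both wild type arrays stood about equally high and both deficient arrays about equally low. Ddit3 was 2.32-fold lower without STAT4 and 2.33-fold lower without STAT6. These comparisons share no array. By their brightest probe sets, it was the only one of the 7 genes called in both losses. Its dimmer probe set read 7.92, 7.18, 8.04 and 6.75, which is 1.67-fold and 2.45-fold below the matched wild type. Between the wild types the brighter probe set differed by 1.18-fold and the dimmer by 1.09-fold, in opposite directions.

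Asns encodes asparagine synthetase, which makes asparagine from aspartate and glutamine. The brighter probe set read 9.1 with STAT4 and 8.54 without it in Th1 cells, and 11.36 with STAT6 and 10.59 without it in Th2 cells. Both Th2 arrays were above both Th1 arrays, and the share of all genes with this order is not given here. Wild type Th2 cells had 4.81-fold more Asns signal than wild type Th1 cells, and STAT6-deficient Th2 cells had 4.13-fold more than STAT4-deficient Th1 cells. The dimmer probe set, of the x_at kind, read 8.27, 7.25, 10.94 and 10.22, with 6.39-fold and 7.81-fold differences. Without STAT6, Asns differed by 1.71-fold and 1.66-fold on the 2 probe sets, under the limit. Without STAT4 the dimmer probe set was 2.02-fold lower and the brighter 1.47-fold lower. By brightest probe set, Asns was the only one of the 7 genes called between the deficient groups.

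Trib3 encodes a pseudokinase that ATF4 and CHOP induce and that in turn damps them and AKT signalling. Its brighter probe set, of the x_at kind, read 7.46 with STAT4 and 8.06 without it in Th1 cells, and 9.82 with STAT6 and 8.23 without it in Th2 cells. Th2 wild type stood alone, and the other 3 arrays lay within 1 log2 unit. Trib3 was 5.16-fold higher in wild type Th2 than in wild type Th1 cells and 3.02-fold lower without STAT6. Both of these use the Th2 wild type array, so a high reading of that array alone enters both. The other probe set gave 7.6, 8.15, 9.41 and 7.79, with 3.52-fold and 3.09-fold differences. Without STAT4, both probe sets lay above wild type, by 0.6 and 0.55 log2 units, which are not calls.

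Chac1 encodes an enzyme that breaks down glutathione and is a target of ATF4. It had 1 probe set, which read 7.92 with STAT4 and 8.3 without it in Th1 cells, and 9.44 with STAT6 and 8.26 without it in Th2 cells. The order of the arrays resembled that of Trib3, with Th2 wild type alone at the top. Chac1 was 2.88-fold higher in wild type Th2 than in wild type Th1 cells and 2.26-fold lower without STAT6. The deficient arrays differed by 0.04 log2 units, and loss of STAT4 by 0.38.

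Ddit4 encodes REDD1, which acts through the TSC complex to restrain the growth kinase TORC1, and which hypoxia and glucocorticoids induce as well as ATF4. Its only probe set read 9.15 with STAT4 and 8.45 without it in Th1 cells, and 10.32 with STAT6 and 7.66 without it in Th2 cells. The STAT6-deficient array was the lowest and Th2 wild type the highest. The fold between them, 6.34, was the largest that STAT6 loss gave for any of the 7 genes, and 1.97% of all genes had a lower value. Ddit4 was also 2.25-fold higher in wild type Th2 than in wild type Th1 cells. The difference of 0.7 log2 units below wild type without STAT4 was 1.62-fold and is no call.

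Sesn2 encodes sestrin 2, a leucine sensor that restrains TORC1 and is a target of ATF4 and p53. The main probe set read 7.77 with STAT4 and 7.47 without it in Th1 cells, and 8.44 with STAT6 and 7.65 without it in Th2 cells, and was called in no comparison. The other read 8.44, 7.73, 6.89 and 7.41. They disagree on the wild types: the main one was 1.6-fold higher in Th2 cells, under the limit, and the other 2.92-fold higher in Th1 cells. The platform annotation gives both the same source accession, and in STAT6 loss they differed by −0.79 and 0.52. No direction is given for Sesn2 in these comparisons.

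**Figure D2:**
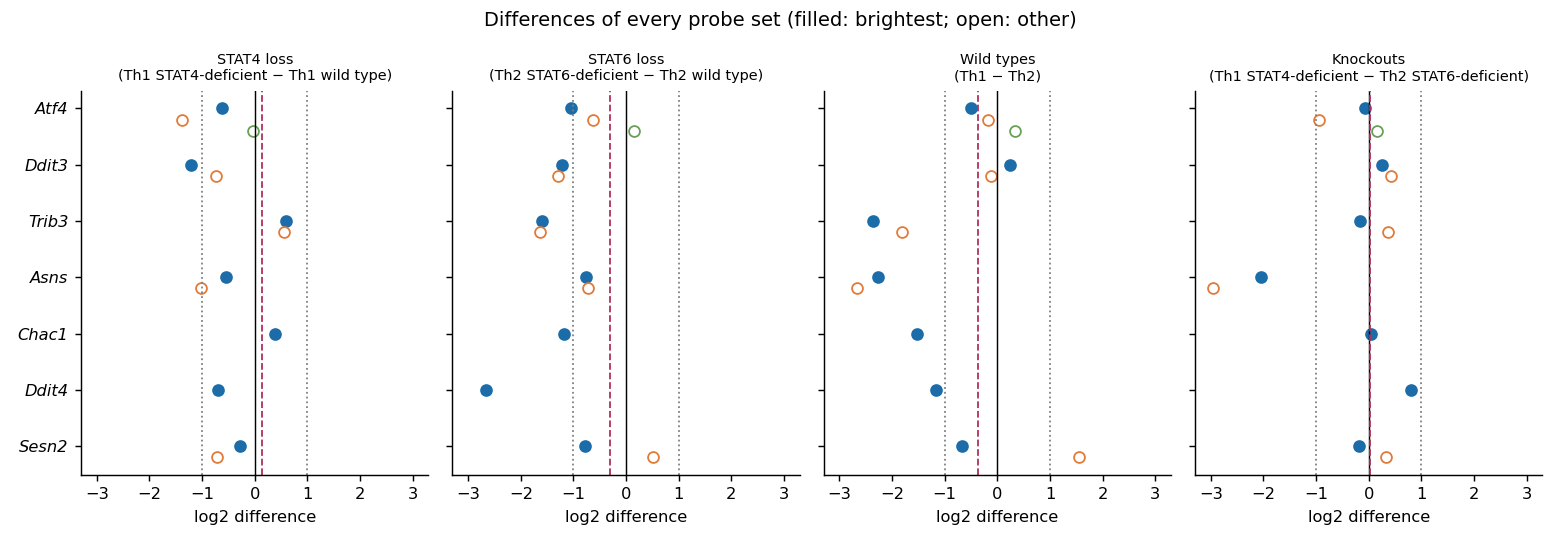
Log2 difference of every probe set in the 4 comparisons, with filled points for the brightest probe set of a gene and open points for the others. Dotted lines mark the 2-fold limits and the dashed line the median of all genes; in STAT6 loss all 7 filled points lie below 0, and between the deficient groups only Asns lies beyond the limit.

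In the loss of STAT6, 5 of the 7 genes were lower (Atf4, Ddit3, Trib3, Chac1 and Ddit4) and none higher, against 19.5% lower and 7.01% higher among all 11490 genes at the level minimum. Their median log2 difference was −1.18, against −0.3 over all genes. At the level of probe sets, 7 of 13 were lower, and 11 of 13 lay below 0. The share over all probe sets is not given here. Among all genes at the level minimum, each by its brightest probe set, 65.7% lay below 0. The third Atf4 probe set did not reach that minimum in this comparison. The members' calls did not all hold when the arrays were scaled in 4 other ways. Ddit4 (−2.78 to −2.36 log2) and Trib3 (−1.71 to −1.26) were lower under all 4. Ddit3 (−1.34 to −0.93) and Chac1 (−1.3 to −0.86) were lower under 2, and Atf4 (−1.17 to −0.91) under 1. After quantile normalization 2 of the 7 were lower, against 12.3% of all genes called lower, and after cyclic loess likewise 2, against 12.6%. Of all genes called in STAT6 loss 26.5% were higher as deposited, and up to 43.4%, after quantile normalization, under the other scalings.

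In the loss of STAT4, Ddit3 alone was lower and none was higher, against 5.34% lower and 6.18% higher among 12608 genes. The median of the 7 was −0.55 against 0.13. Relative to the median gene, Ddit3 differed by −1.34, Ddit4 by −0.82, Atf4 by −0.75, Asns by −0.68 and Sesn2 by −0.42, while Chac1 and Trib3 differed by 0.26 and 0.47. The Ddit3 call was lost under centring on hybridization controls, at −0.83. Of all genes called in STAT4 loss 53.7% were higher as deposited, 24.8% after median centring, 41.4% after loess and 87.5% with the hybridization controls.

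Between the wild types 4 of the 7 were lower in Th1 cells and thus higher in Th2 cells (Trib3, Asns, Chac1 and Ddit4), and none the other way. Among all 12111 genes 25.4% were lower in Th1 and 8.14% higher, so a count of 4 stands against a background of 1 gene in 4 that was higher in Th2. The 7 genes had a median of −1.17 against −0.37. Trib3 and Asns had only 3.7% and 4.21% of all genes below them, while Chac1 had 12.1% and Ddit4 20.4%. Trib3 (−2.75 to −1.77) and Asns (−2.64 to −1.75) kept the call under all 4 other scalings, and Chac1 and Ddit4 lost it after quantile normalization and after loess. Of all genes called between the wild types 24.3% were higher in Th1 cells as deposited, 44.9% after quantile normalization, 41.0% after loess and 8.9% with the hybridization controls.

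Between the deficient groups, Asns alone was called, lower in Th1 STAT4-deficient cells, against 10.3% lower and 12.6% higher among all 12582 genes. It had 1.83% of genes below it, and it kept the call under all 4 other scalings (−2.42 to −1.8). The median of the 7 was −0.07, against 0.02 over all genes. The brightest probe sets of Atf4, Ddit3, Trib3, Chac1 and Sesn2 differed by 0.25 log2 units or less, while the second Atf4 probe set differed by −0.94. Ddit4 was 0.8 log2 units above its level in Th2 STAT6-deficient cells, and passed the limit after quantile normalization and loess. Of all genes called here 55.1% were higher in the STAT4-deficient cells as deposited, 18.8% after median centring and 68.4% with the hybridization controls.

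**Figure D3:**
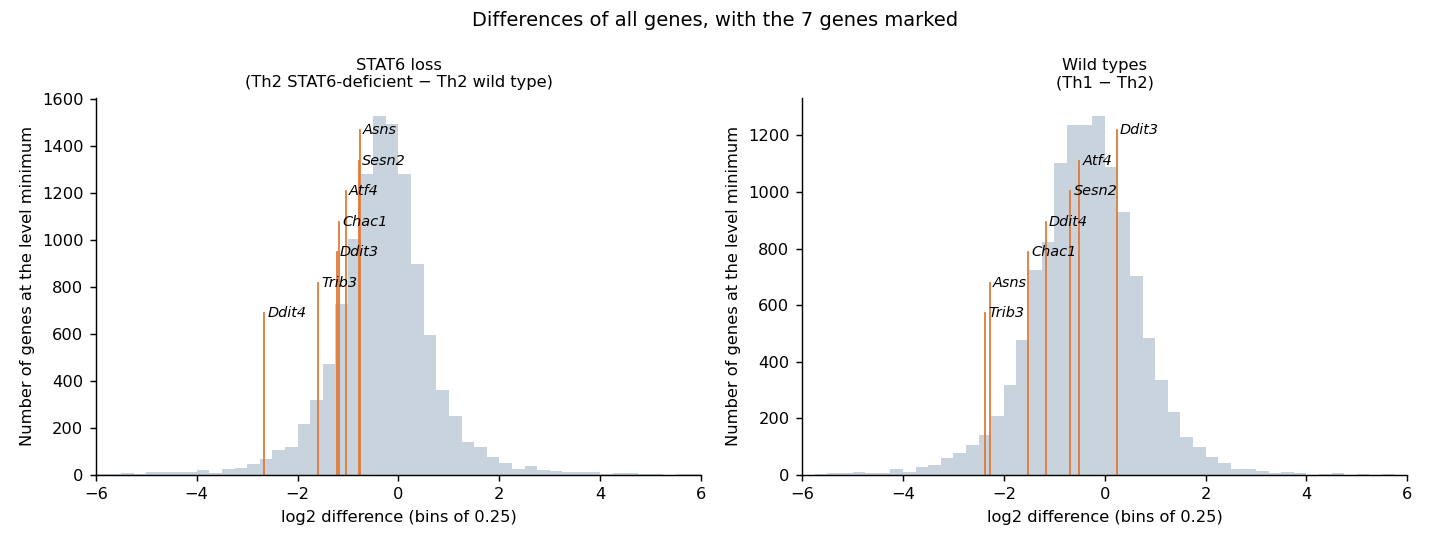
Number of genes at the level minimum by log2 difference, in bins of 0.25, for STAT6 loss and for the wild types, with the 7 genes at their values as vertical lines (line height carries no value). Ddit4 lies furthest down in STAT6 loss at −2.66, and Trib3 and Asns in the wild types at −2.37 and −2.27.

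**Figure D4:**
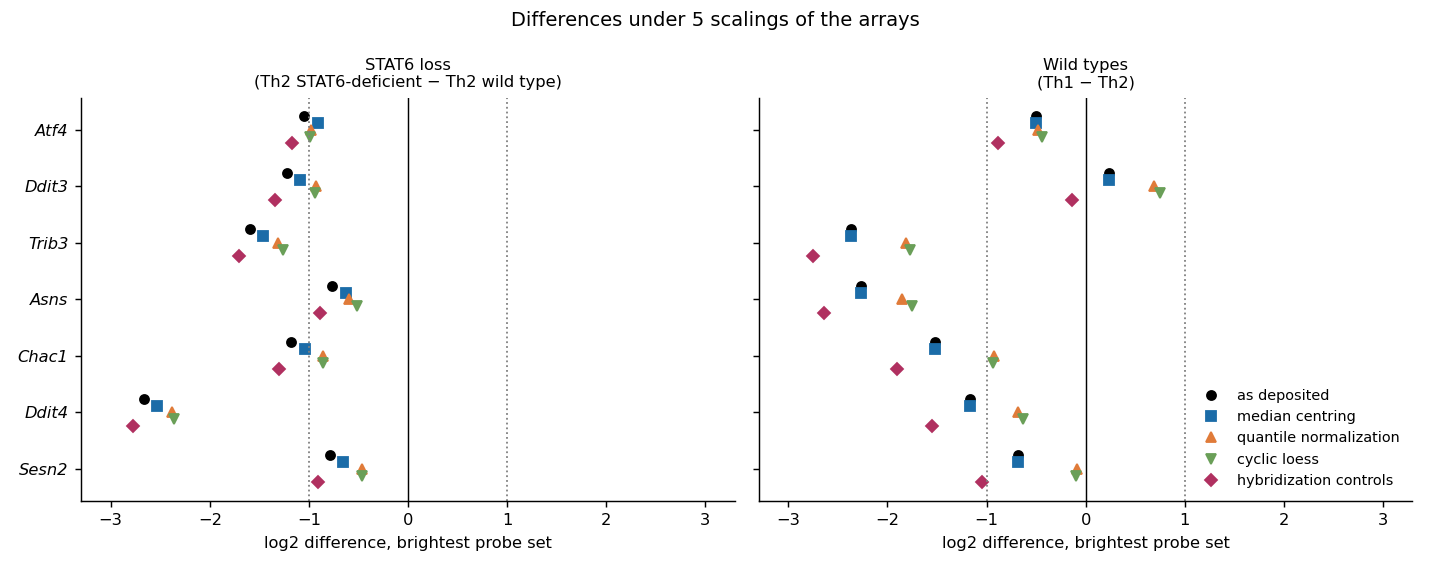
Log2 difference of the brightest probe set of each gene for STAT6 loss and for the wild types, as deposited and under 4 other scalings of the arrays; dotted lines mark the 2-fold limits. Ddit4 and Trib3 stay beyond the limit in STAT6 loss and Trib3 and Asns in the wild types, while Atf4, Ddit3 and Chac1 lie close to it in STAT6 loss.

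The loss of STAT4 and that of STAT6 share no array, and their difference was taken for each gene. STAT6 loss minus STAT4 loss was −2.19 for Trib3, −1.97 for Ddit4 and −1.56 for Chac1, against −0.37 for the median of 10951 genes. The dimmer Trib3 probe set gave −2.18. The brightest probe sets gave −0.43 for Atf4, −0.22 for Asns, −0.5 for Sesn2 and −0.01 for Ddit3. Other probe sets had the opposite sign for Atf4 (0.76 and 0.18), Asns (0.29) and Sesn2 (1.22), so no direction is given for these 3 genes, and the dimmer one of Ddit3 gave −0.55. This difference has no replicate error and was not tested.

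Upstream stand the kinases and the eIF2 and eIF2B factors. Of 12 measured, 1 was higher and 1 lower in each loss, with medians of 0.2 (STAT4, turning to −0.04 after median centring) and −0.27 (STAT6). Among all genes 5.34% were lower and 6.18% higher in STAT4 loss, and 19.5% and 7.01% in STAT6 loss. Eif2ak3, which encodes the ER stress kinase PERK, read 9.5 with STAT4 and 8.03 without it in Th1 cells, and 9.41 with STAT6 and 7.54 without it in Th2 cells. Like Ddit3 it was low on both deficient arrays, 2.76-fold and 3.64-fold below wild type, and these calls held under all 4 other scalings. Other Eif2ak3 probe sets differed by as little as −0.28 in STAT4 loss and −0.24 in STAT6 loss. Eif2ak2, which encodes the interferon-induced kinase PKR, was 2.01-fold higher without STAT6, and lost that call under 1 scaling. Eif2ak4, for the amino acid sensor GCN2, was 2.81-fold higher in wild type Th2 than Th1 cells on its main probe set, but another probe set pointed the other way by 0.53 log2 units. Eif2ak1 (HRI) was not called in any comparison on its main probe set, which was 1.97-fold above wild type without STAT4. Other Eif2ak1 probe sets reached 1.09 log2 units in STAT6 loss and 1.24 between the wild types. The main one differed there by −0.24 and −0.54. Between the deficient groups they reached 1.01, against 0.67 for the main one. The eIF2B subunit genes Eif2b3 (2.92-fold higher without STAT4) and Eif2b4 (3.21-fold higher in wild type Th2) were the called ones of their complex.

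Ppp1r15a encodes GADD34, the inducible subunit that brings a phosphatase back to eIF2 and ends the response. It read 11.88 with STAT4 and 10.56 without it in Th1 cells, and 10.33 with STAT6 and 10.63 without it in Th2 cells. Th1 wild type was the high array, unlike for Trib3 and Chac1. It was 2.49-fold lower without STAT4 (not with hybridization controls, −0.93) and 2.92-fold higher in wild type Th1 than Th2 cells. The constitutive subunit gene Ppp1r15b was called in no comparison on its main probe set, while its other probe set differed by 1.16 log2 units between the wild types.

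The bZIP partners of ATF4 divided in their patterns. Their list also held Nupr1, whose product is not a bZIP protein and which was among those lower without STAT4. Of 12 measured, 5 were lower and none higher without STAT4 (median −0.4), against 5.34% lower and 6.18% higher among all genes. Without STAT6, 6 were lower and 0 higher of the 11 at the level minimum (median −1.05), against 19.5% and 7.01%. Atf5, the paralog of Atf4, read 7.78 with STAT4 and 7.89 without it in Th1 cells, and 9.67 with STAT6 and 8.34 without it in Th2 cells. Cebpb and Cebpg, whose products pair with ATF4, were likewise highest in Th2 wild type, at 10.99 and 10.09 against 9.43 and 8.51 in Th1 wild type. These 3 genes were 2.52-fold, 2.22-fold and 2.07-fold lower without STAT6, but under other scalings only the Atf5 call held throughout. Atf3 read 12.74, 10.68, 11.67 and 10.84 in the same order of groups, so Th1 wild type was its highest array, and it was 4.17-fold lower without STAT4. Cebpd and Batf3 were lower in both losses, Cebpd by 10.0-fold without STAT4 and by 3.5-fold without STAT6. Another Cebpd probe set differed by −0.21 and 0.25. Jdp2, which encodes a repressor related to ATF3, was 46.6-fold lower without STAT6 at 5.75 against 11.29, although its second probe set differed by only −0.33. Nfe2l2, which encodes the antioxidant regulator NRF2, was 6.68-fold higher in wild type Th1 than Th2 cells and 3.84-fold lower without STAT4.

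The paralogs of the 7 genes were mixed. Atf5, whose values stand above with the bZIP partners, was lower without STAT6 and higher in wild type Th2 than Th1 cells, as Trib3 and Chac1 were. Sesn1 was 3.36-fold higher and Sesn3 2.59-fold lower without STAT4, and Sesn3 was 3.15-fold higher in wild type Th1 than Th2 cells. Trib2 was 5.55-fold higher in wild type Th1 cells, with a probe set at −0.37 to the contrary, while Trib3 was higher in Th2 cells. Chac2, which encodes the constitutive relative of the Chac1 enzyme, was 2.95-fold higher in wild type Th2 than Th1 cells, as Chac1 was. It was 2.62-fold higher in STAT6-deficient Th2 than in STAT4-deficient Th1 cells, where Chac1 differed by 0.04 log2 units. Ddit4l did not reach the level minimum on any array.

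Amino acid synthesis genes, to which ATF4 targets such as Asns belong by function, were measured next. Between the wild types 9 of 12 at the level minimum were higher on the Th2 side and 0 on the Th1 side, with a median of −1.62. Among all genes 25.4% and 8.14% were so, with a median of −0.37. Under the other scalings from 8 to 12 were higher on the Th2 side, against 14.1% to 40.6% of all genes. Cth, which makes cysteine, was 31.4-fold higher in Th2 cells, and the serine synthesis genes Psat1, Phgdh and Psph were 6.72-fold, 5.53-fold and 5.49-fold higher. Between the deficient groups 4 of 12 were higher in Th2 STAT6-deficient cells, against 10.3% of all genes, with Cth at 17.2-fold and Psat1 at 2.54-fold. STAT6 loss gave 4 lower of 12 and none higher (median −0.5), against 19.5% and 7.01% of all genes (median −0.3). The 4 were Gpt2 (4.76-fold), Got1 (3.76-fold), Psph (2.72-fold) and Mthfd2 (2.21-fold). Cth, Psat1 and Phgdh were not among them, at 1.56-fold, 1.38-fold and 1.41-fold below wild type.

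The tRNA synthetase genes, which ATF4 raises along with amino acid supply, were measured beside them. Of 19, 9 were higher on the Th2 wild type array and 0 on that of Th1 (median −0.99), against 25.4% and 8.14% of all genes (median −0.37). Under the other scalings the count on the Th2 side ran from 4 to 13, against 14.1% to 40.6% of all genes. Mars1, Aars, Vars and Lars were 3.48-fold, 3.35-fold, 3.2-fold and 2.91-fold higher. STAT6 loss called none of the 19 (median −0.17), against 19.5% of all genes lower and 7.01% higher. Under at least 1 other scaling 1 was lower. STAT4 loss gave 3 of 19 higher and 0 lower (median 0.38), against 6.18% of all genes higher. Under the other scalings 0 to 5 were higher, against 2.95% to 18.5% of all genes. Lars alone was called between the deficient groups, lower in Th1 STAT4-deficient cells, 1 of 19 against 10.3% of all genes. The list's median there was −0.5 (−0.88 to −0.18 under the other scalings), against 0.02 for all genes. Under the other scalings 0 to 6 were lower, against 7.88% to 21.4% of all genes, and the Lars call held under 2 of the 4. Amino acid transporters were mostly level: of 11, only Slc7a3 and Slc6a9 were higher in wild type Th2 cells, against 25.4% of all genes. None of the 11 was called in STAT6 loss (median 0.2).

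Among other known targets of ATF4 and CHOP, 9 of 15 were lower and 1 higher without STAT6 (median −1.18), against 19.5% and 7.01% of all genes. From 4 to 9 were lower under the other scalings, against 12.3% to 22.9% of all genes. Ero1a, an ER oxidase, was 3.53-fold lower, Hmox1, which encodes heme oxygenase 1, 2.95-fold, and the lipoprotein receptor gene Vldlr 2.94-fold. The higher one was Bcl2l11, which encodes the cell death protein BIM, at 3.71-fold. This list shares Cebpb and Nupr1 with the list of bZIP partners and Ero1a and Vegfa with the hypoxia targets, so that these are counted in both lists. In STAT4 loss 4 were lower, against 5.34% of all genes, led by the cell death gene Pmaip1 (5.83-fold) and Nupr1 (5.27-fold). Another Nupr1 probe set differed by only −0.27. Between the wild types 5 of 16 were higher in Th2 cells and 4 in Th1 cells (median −0.24). Among all genes 25.4% and 8.14% were so, with a median of −0.37. The list's median turned positive, up to 0.22, after quantile normalization and loess.

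**Figure D5:**
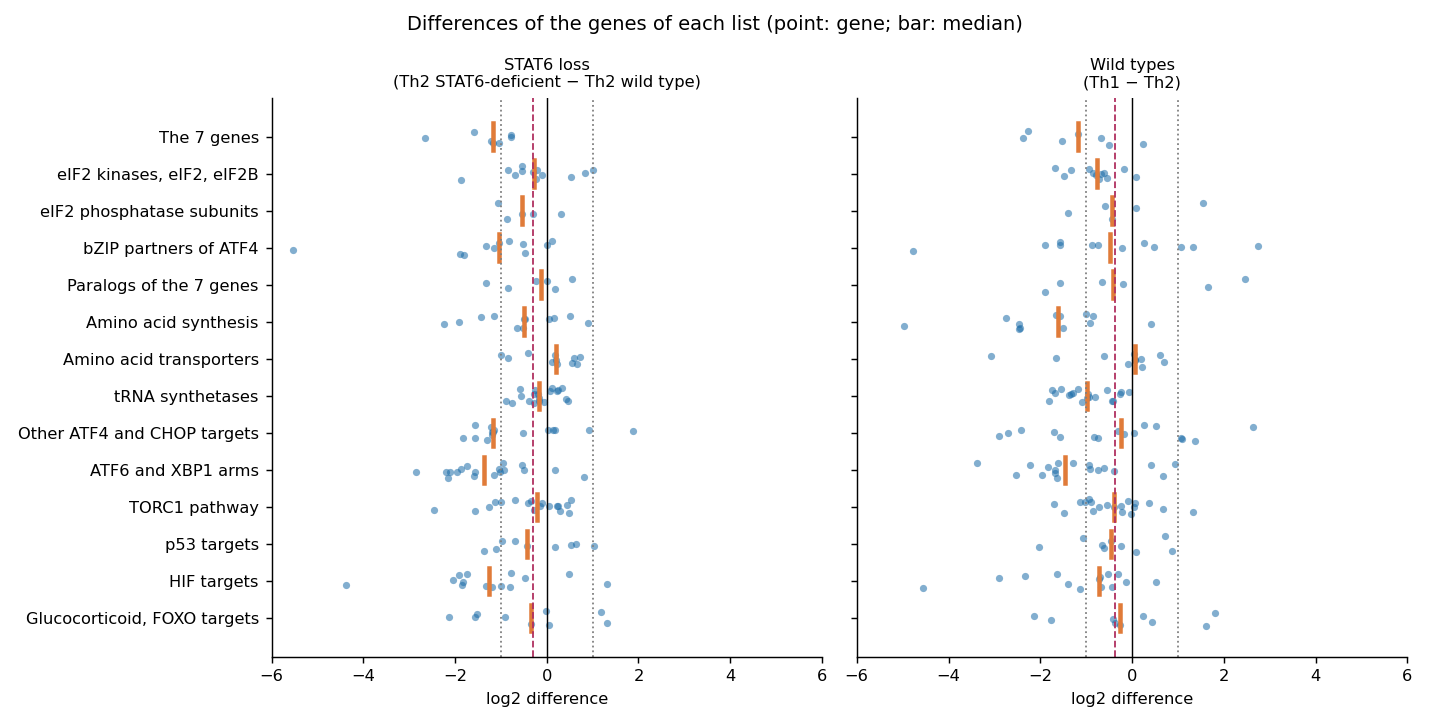
Log2 difference of each gene at the level minimum in the 14 lists shown, for STAT6 loss and for the wild types; points are genes, bars are list medians, dotted lines are the 2-fold limits and the dashed line is the median of all genes. The tRNA synthetase and amino acid synthesis lists lie lower between the wild types (medians −0.99 and −1.62) than in STAT6 loss (−0.17 and −0.5), and the ATF6 and XBP1 arms lie low in both.

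The other arms of the unfolded protein response, run by ATF6 and XBP1, were measured beside them. Of 18 genes 12 were lower and none higher without STAT6 (median −1.36), against 19.5% and 7.01% of all genes (median −0.3). Under the other scalings 9 to 14 were lower, against 12.3% to 22.9% of all genes. Sdf2l1, Creld2, Xbp1 and Pdia4 were 7.15-fold, 4.59-fold, 4.47-fold and 4.3-fold lower, although another Pdia4 probe set differed by 1.18 in the other direction. In STAT4 loss 4 of 18 were lower and none higher (median −0.37), against 5.34% and 6.18% of all genes (median 0.13). Under the other scalings 2 to 6 were lower, against 2.64% to 8.92% of all genes, and 0 to 2 higher, against 2.95% to 18.5%. The median turned to 0.01 with hybridization controls. In the wild types 10 of 18 were higher in Th2 cells, against 25.4% of all genes. Hspa5, the chaperone BiP that is a usual sign of ER stress, read 14.13, 13.88, 13.72 and 13.91 in the 2 Th1 and then the 2 Th2 groups, wild type first, and was not called.

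Ddit4 and Sesn2 act on TORC1, and Ddit4 answers to other inputs. Of 18 genes of the TORC1 pathway at the level minimum 4 were lower without STAT6 and none higher, a share near the 19.5% of all genes. The list's median of −0.21 turned positive, up to 0.1, after median centring, quantile normalization and loess. Castor1, which encodes an arginine sensor, was the lowest of them at 5.48-fold. Targets of hypoxia-inducible factors were lower without STAT6 in 9 of 14 and higher in 1 (median −1.26), against 19.5% and 7.01% of all genes. Among the lower ones were Bnip3 (20.8-fold) and Ankrd37 (4.12-fold). Under the other scalings 7 to 9 were lower, against 12.3% to 22.9% of all genes. Without STAT4, 2 of the 14 hypoxia targets were lower (median −0.22, turning to 0.16 with hybridization controls), against 5.34% of all genes. Targets of p53 had 2 lower and 1 higher of 9 in STAT6 loss, and glucocorticoid and FOXO targets 3 lower and 2 higher of 9, against 19.5% lower and 7.01% higher among all genes. Whether any of these inputs bears on Ddit4 was not tested.

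The likeness of patterns was measured as the root mean square distance between log2 values, each gene centred on its own mean over the 4 arrays. Among the 7 genes, Atf4 and Sesn2 (main probe set) were nearest, at 0.16, followed by Trib3 and Chac1 at 0.31. Ddit3 was nearest to Atf4 (0.34), and the farthest pair was Asns and Ddit3 (1.23). Many other genes lay nearer: 2.63% of genes at the level minimum were nearer to Trib3 than Chac1 was, and 14.1% were nearer to Atf4 than Ddit3 was. The 3 nearest genes were Tpgs2, Hspa14 and Ctnnbip1 for Atf4 and Syap1, Dym and Grap2 for Ddit3. For Trib3 they were Bckdk, D17H6S56E-5 and Cited2, and for Asns Tmem107, Nsmf and Etv6. Chac1 had Exo5, Srbd1 and Bhlhb9, Ddit4 had Tex9, Ppp3cc and Il4ra, and Sesn2 had Smim15, Dennd1a and Jkamp. Over 4 arrays such nearness is a description only.

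Markers of other cell types differed across arrays. Of 9 myeloid and dendritic cell markers, 5 were at the level minimum in each wild type and 3 in each deficient array. Their summed linear signal was 635 with STAT4 and 536 without it in Th1 cells, and 886 with STAT6 and 439 without it in Th2 cells. Itgam and Cd14 were below the level minimum on all 4 arrays. Adgre1, which encodes the macrophage marker F4/80, read 8.26 in wild type and 5.92 in STAT6-deficient Th2 cells, 5.04-fold lower, and Itgax and Fcgr3 were 3.31-fold and 3.01-fold lower. For 6 B cell markers the sums were 253, 351, 253 and 242, and Ms4a1 and Blnk were below the minimum on every array. For 5 markers of CD8 T and NK cells they were 340, 269, 519 and 225, and for 9 of mast cells, neutrophils, erythroid cells and platelets 355, 344, 628 and 281. The CD8 chain gene Cd8b1 read 8.54 in wild type and 6.47 in STAT6-deficient Th2 cells, 4.19-fold lower, while Ncr1, Klre1 and Tyrobp were below the minimum on all 4 arrays. The mast cell protease gene Cpa3 read 8.64 and 4.9, which is 13.4-fold lower without STAT6. In STAT6 loss 3 of 5 myeloid markers at the level minimum were lower. So were 1 of 2 CD8 and NK markers and the 1 mast cell list marker at that level, Cpa3. Of 3 B cell markers 0 were lower and Cd22 was higher, a call kept under 3 of the 4 other scalings. Among all genes 19.5% were lower and 7.01% higher. Markers below the minimum went both ways, with Cd79a and Lyz2 above wild type and Ms4a1 and S100a9 below it. In all 4 lists the Th2 wild type sum was above the Th2 STAT6-deficient sum, as for Ddit4, Trib3 and Chac1. In all but the B cell list Th2 wild type was the highest array. The sums are linear, so the brightest markers weigh most. Cpa3 and Cd8b1 were the brightest of their lists in Th2 wild type cells. The B cell sums were close, at 253 and 242. S100a8, Pf4, Ncr1 and Tyrobp, all below the minimum, lay above wild type without STAT6, and other markers of their lists lay below it. The shared direction is therefore one of the sums, not of every marker. The part of these markers in the members' differences was not tested. In bulk RNA, fewer cells of a type and less RNA per cell cannot be told apart.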

How the data were processed

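Total RNA of CD4+ T cells was hybridized to Affymetrix Mouse Genome 430 2.0 arrays, 1 per group. The deposited values are log2 expression values that the authors made with RMA, per the submitters' processing notes, which give no version; whether the arrays were normalized together is not given in the sources used here. Array medians ran from 5.63 to 6.01, so the arrays do not share 1 distribution. The number of arrays limits the precision.

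The table has 45101 probe sets, 64 of them controls. By GEO's platform annotation, 34945 others name 1 gene and were kept, 932 name several and 9160 none. RefSeq (GRCm38.p6) gave a current symbol for 34741 of those kept. Differences were taken between arrays in Python 3.11.15 (pandas 2.3.3, numpy 2.4.6), with a 2-fold limit and a level minimum of 5.82; with 1 array per group there is no test. Quantile normalization and cyclic loess used limma 3.58.1 in R 4.3.3; other scalings centred arrays on the median probe set or on 18 hybridization control probe sets. The calling steps were tested on simulated data. All 7 members with their probe sets, the kinase, phosphatase, partner, paralog and polarity lists, up to 4 called genes per comparison of each other list, and the 3 nearest genes of each member could be named; Hspa5 and the uncalled values of Cth, Psat1 and Phgdh were chosen after they were seen. The members and lists were chosen with earlier results of these data known. Genes of a list that were not measured here are left out of its count.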

Additional observations from a re-analysis of the deposited data

Results flagged for a closer look

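Trib3 and Chac1 lay on opposite sides of their wild type in the 2 losses, on every probe set of the gene. The brightest Trib3 probe set was 0.6 log2 units above wild type without STAT4 and differed by −1.59 without STAT6, so that the losses differed by −2.19. Chac1 was 0.38 above wild type without STAT4 and differed by −1.18 without STAT6, a difference of −1.56. With 1 array per group these differences were not tested, and neither STAT4 value passed the 2-fold limit.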

How the results depend on the processing

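With 1 array per group no replicate could be left out. No paired analysis was possible because each group has 1 array and the labels give no replicate numbers. No member difference that was called changed sign under the 10 alternatives, of which the fold limits and level minimums could not change a sign. After quantile normalization, and likewise after cyclic loess, 2 members were lower in STAT6 loss, 2 were lower in Th1 cells between the wild types (14.1% and 14.9% of all genes), and 1 (Ddit4) was higher in STAT4-deficient cells (10.2% and 8.11%). Centring on hybridization controls gave 2725 genes called in STAT4 loss, against 1452, and 0 members lower (2.64% of all genes). A level minimum at the 75th percentile gave 847 genes in STAT4 loss and 1386 between the deficient groups, against 2875. A limit of 1.5-fold gave 4010 genes in STAT4 loss, 5594 in STAT6 loss (3043 at 2-fold), 6877 between the wild types (4058) and 5954 between the deficient groups. It gave 3 members lower and 1 higher in STAT4 loss (12.6% and 19.2% of all genes), and 1 higher between the deficient groups (25.4%). A limit of 3-fold gave 408, 1279, 1709 and 913 genes in the same order, with 0 members lower in STAT4 loss, 2 in STAT6 loss (7.96% of all genes) and 2 between the wild types (10.9%). The mean over probe sets gave 0 members lower in STAT4 loss (4.22% of all genes). The probe set with the highest variance gave 3 (7.29%), and 1 member (Sesn2) higher in Th1 cells between the wild types (12.5%). In STAT6 loss Atf4 was called by neither, at −0.51 for the mean and −0.62 for the probe set with the highest variance. Of the members' differences under the alternatives 273 moved by less than the SD among probe sets of a gene and 7 by more. The fold limits and level minimums leave a difference as it is, so their part of the 273 was fixed beforehand. Centring on the median or on hybridization controls shifts all genes of a comparison alike, here by less than that SD. The tally is therefore no measure of robustness. The array number and the lack of replicates limit every value; Atf4 at 2.07-fold lies at the limit.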
